A study of Homo sapiens with 2 samples.

Results

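Of the 24258 TRF2 peaks listed for HCT116, the chromosome 7 centromere carried 874, a share of 3.60% (95% interval 3.37% to 3.85%, exact binomial). Members were all listed peaks on chromosome 7 whose summit, the start plus the summit offset, lay from 58100000 to 62100000 on hg38. The choice used position only. The window is the pair of cytogenetic centromere bands p11.1 and q11.1, which meet at 60100000, so the label and the band annotation cover the same interval. HCT116 is a colorectal cancer cell line. The TRF2 library held its chromatin precipitated with an antibody to TRF2, and the input library held chromatin taken with no antibody. Both came from cells fixed in 1% formaldehyde 72 h after plating, and there was 1 library of each. The name of the deposited list mentions a control siRNA while the labels mention no transfection, so a transfection is not settled. A single library per group allows no test between samples, and every interval here covers counting error only.

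TRF2 is a subunit of shelterin, the complex that covers the double-stranded repeats at chromosome ends and keeps them from being joined or read as breaks. Centromeres are built on alpha satellite, short monomers repeated head to tail and, in the active arrays, ordered into longer chromosome-specific units that carry the CENP-A nucleosomes of the kinetochore. In hg38 such arrays are represented by model sequences, in which the order of repeat copies is not that of any real chromosome. A read from an array can fit many positions, and the sources used here do not say how such reads were placed. Positions within an array are therefore those of the model. Which parts of the window are model sequence was not determined, and peak sequences were not analysed here.

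Peaks filled most of the window and thinned out toward its long-arm end. The density was 218.5 peaks per Mb over 4 Mb (exact Poisson 95% interval 204 to 233), and the peaks covered 94.6 kb, or 2.37% of the window. Band p11.1 held 564 peaks, at 282 per Mb (259 to 306), and q11.1 held 310, at 155 per Mb (138 to 173). The short-arm band thus held 64.5% of the members (exact binomial interval 61.3% to 67.7%). The inner part of q11.1, up to the summit at 60819872, had 217 peaks at 301 per Mb (263 to 344), an interval that overlaps that of p11.1. This end was chosen from the peaks themselves, by the split described below, while p11.1 was not trimmed. The overlap is therefore not an independent result. Of 40 bins of 100 kb, 37 held a summit.

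**Figure D1:**
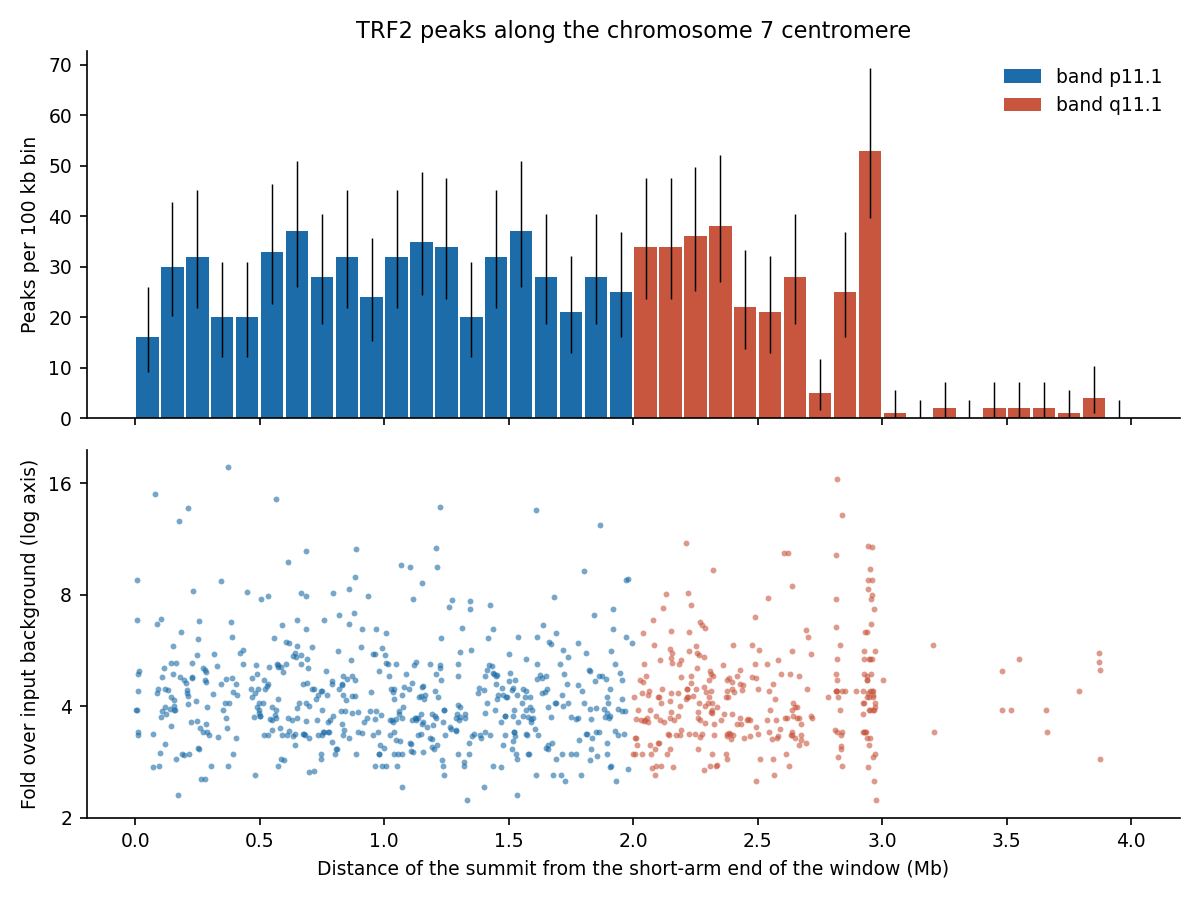
Peaks per 100 kb bin (top, bars from 0, lines are exact Poisson 95% intervals) and the authors' fold of each peak on a log axis (bottom), against distance from the short-arm end of the window in Mb, coloured by band. Whole bins within the long filled stretch hold 20 to 38 peaks, the bin at 2.9 Mb holds 53, and each of the last 10 bins holds 4 or fewer.

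Splitting the window at runs of 50 kb or more without a summit, a rule chosen after seeing the data, gave a long stretch, a shorter stretch and scattered remainders. The long stretch ran from the summit at 58172102 to that at 60819872. It held 772 peaks, 88.3% of the members (exact binomial interval 86.0% to 90.4%), at 292 per Mb (271 to 313). The shorter stretch ran from 60882693 to 61102972 and held 80 peaks at 363 per Mb (288 to 452), an interval that overlaps that of the long stretch. Its bounds depend on the 50 kb rule and did not hold at runs of 40 kb or 100 kb. On the short-arm side, 9 peaks lay between 58105373 and 58113951. Beyond the shorter stretch 13 peaks were left in 0.997 Mb, at 13.0 per Mb (6.94 to 22.3).

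Within the long stretch peaks lay in every bin. Its 26 whole bins of 100 kb held 29.3 ± 5.95 peaks (SD over bins, which are not replicates), with a lowest count of 20, a median of 31 and a highest of 38. The variance of these counts was 1.21 times their mean. The median fold per bin stayed between 3.68 and 4.61, and the median background between 1.21 and 1.69. Strong peaks, those with a −log10 q of 5 or more, numbered 1 to 16 per bin. The bin with 16 was 58700001 to 58800000, and the bin with 1 was 59600001 to 59700000, although both held 37 peaks.

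The 5 longest runs without a summit all lay in the outer part of q11.1. They measured 274 kb (61306201 to 61579936), 201 kb (61102972 to 61303799), 128 kb (61759753 to 61888177), 125 kb (from 61975451 to the window's end at 62100000) and 108 kb (61650044 to 61758130). Runs of unknown bases in the assembly were not used here, so an empty run cannot be told apart from a stretch with no sequence to align to.

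At the edges of the window, the first members on the short-arm side, at 58105331 to 58105399 and 58106130 to 58106240, had folds of 3.90 and 8.78. The nearest peaks outside them, at 58078860 to 58079008 and 58065881 to 58066036, had folds of 4.39 and 4.70. On the long-arm side the last members, at 61975421 to 61975510 and 61972862 to 61972934, had folds of 5.01 and 2.88. The nearest peaks outside, at 62110824 to 62110892 and 62130537 to 62130613, had 4.88 and 3.71.

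Most members were shallow and narrow. Each peak has an authors' fold, the TRF2 pileup over the local input background at the summit. The pileup, a whole number of reads, and the background, in input reads scaled to the depth of the TRF2 library, were recovered from that fold and the p-value. The lowest member fold was 2.24, the median 4.09 and the highest 17.7. The pileup had a lowest value of 5 reads, a median of 10 and a highest of 104, with the middle 50% of peaks between 8 and 13. The background ran from its genome-wide minimum of 1.05 to 30.5, with a median of 1.46. Width ran from 69 to 449 bp with a median of 94 bp, against a median of 104 bp in all listed peaks. The smallest width the list allows was that of 147 members (16.8%), near the 17.2% of all listed peaks. A pileup of 10 reads, the depth behind a typical member, has an exact Poisson interval of 4.80 to 18.4 reads.

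Counts past a threshold were set beside the whole list. A q-value under 0.05 was reached by 659 members (75.4%, exact binomial interval 72.4% to 78.2%), against 79.3% of all listed peaks. A −log10 q of 5 or more was reached by 172 members (19.7%, 17.1% to 22.5%), against 30.0% of all peaks. A fold of 5 or more was reached by 210 members (24.0%, 21.2% to 27.0%), against 25.2%. The share past the fold threshold was near the background, while the share past the stricter q threshold was below it. The median pileup was lower as well, 10 reads in the members against 11 in all peaks, and the upper quartile was 13 against 19.

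The 10 members of highest fold had 27 to 59 TRF2 reads, over backgrounds of 1.13 to 3.38, of which 4 were above the members' median of 1.46. The strongest, at 58473251 to 58473350 in p11.1, had a fold of 17.7, from 38 TRF2 reads (exact Poisson interval 26.9 to 52.2) over a background of 1.20. It ranked 44 by fold in the whole list. Next came a peak of q11.1 at 60917834 to 60917951, in the shorter stretch, with a fold of 16.4 from 34 reads (23.5 to 47.5) over 1.13. These intervals overlap, so the order of the leading peaks is not resolved at this depth.

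The next pair, at 58180697 to 58180801 and 58667511 to 58667621, had folds of 15.0 and 14.5 from 35 and 40 reads. The peak at 59323670 to 59323835 had a fold of 13.8 from 36 reads. The peak at 58311387 to 58311466 had a fold of 13.7 but the most reads of the 10, 59 (44.9 to 76.1) over a background of 3.38, and the highest −log10 q of any member, 46.3. The last 4, at 59711285 to 59711391, 60938141 to 60938374, 58275801 to 58275921 and 59967039 to 59967218, had folds of 13.5, 13.2, 12.6 and 12.4. The leading 10 spanned 2.76 Mb of the window, and the 2 of them in q11.1 both lay in the shorter stretch.

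A fold of 10 or more was reached by 19 of 874 members, 14 of 772 in the long stretch and 5 of 80 in the shorter one. The share of the whole list past this fold was not counted, and the difference between the stretches was not tested. Among the 100 highest folds of the whole list 4 were members, and among the 1000 highest 39, near the members' 3.60% share of all peaks. The strongest peaks of the 5 densest bins had folds of 10.8 (61042027 to 61042119), 9.35 (60418886 to 60418981), 10.5 (58785069 to 58785160), 6.14 (59639362 to 59639434) and 11.06 (60310810 to 60310987).

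Peaks of highest pileup were different peaks, deep in both libraries. The deepest, at 61071232 to 61071346 in the shorter stretch, had 104 TRF2 reads (exact Poisson interval 85.0 to 126) where the input had 45 reads, and a fold of only 3.98. A peak at 58434453 to 58434620 had 103 TRF2 reads against 54 input reads, and a fold of 3.31. Peaks at 59995694 to 59995809, 59163925 to 59164034 and 60383174 to 60383250 had 85, 73 and 67 TRF2 reads against 46, 39 and 43 input reads. Their folds were 3.19, 3.22 and 2.69, all under the median of the members. The depth ratio that the peak caller used was 0.564 TRF2 reads per input read.

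In all, 14 of the 874 members had 20 or more input reads at the summit, with folds of 2.24 to 3.98 and 29 to 104 TRF2 reads. Of these 12 lay in p11.1, and 12 had a −log10 q of 5 or more. Of the 12 members with a pileup of 50 or more, 11 were among these 14. The other was the peak at 58311387 to 58311466, with 6 input reads and a fold of 13.7. Shares of the whole list past these bounds were not counted. Where input reads at the summit set the background, their upper quartile was 5 in the members and 11 in all peaks. The lowest folds among members were 2.24 at 59432786 to 59432854 (29 TRF2 reads against 22 input reads), 2.24 at 61072924 to 61073050 (24 against 18) and 2.304 at 58271890 to 58272175 (13 against 9). The widest peaks, at 61056070 to 61056518, 58850172 to 58850506 and 60482212 to 60482530, measured 449, 335 and 319 bp. Their folds were 6.69, 4.39 and 4.23, and the 10 members of highest fold were 80 to 234 bp wide.

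**Figure D2:**
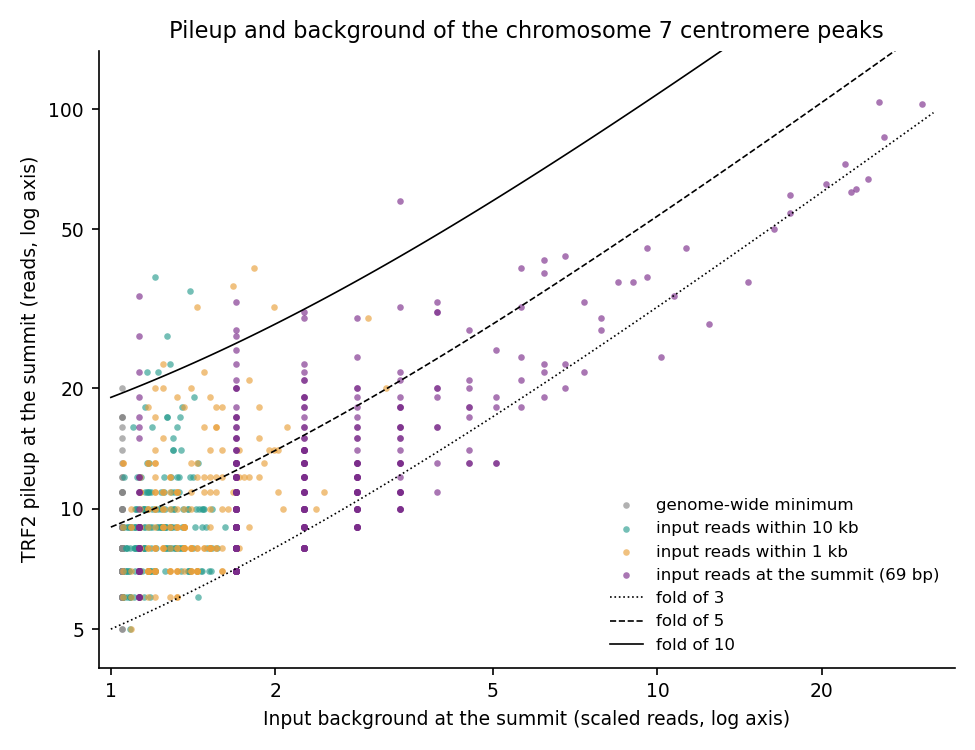
TRF2 pileup in reads against input background in scaled reads at each of the 874 summits, both on log axes, coloured by the window matched to the background, with lines of equal fold. Folds of 10 or more lie at the upper left, at backgrounds of 1.05 to 3.38, and the deepest peaks at the right, near a fold of 3.

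Across the 874 members, pileup and background had a Spearman rho of 0.51 and a Pearson r of 0.69 on log2 values. Fold and background had a rho of −0.33, and width and pileup a rho of 0.057. These are descriptions across peaks of the same pair of libraries. Fold is computed from the pileup and the background, and a peak over a high background needs more reads to be listed, so these measures are not independent.

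The input background recovered at the peaks differed between the long stretch and the shorter one. The peak caller takes the largest of several backgrounds, and each recovered value was matched to a window or to the minimum. The choices were the genome-wide minimum, or input reads at the summit (69 bp), within 1 kb or within 10 kb. Every value that fits whole reads in 1 kb also fits whole reads in 10 kb, and was given to 1 kb. The counts of these classes are therefore not cleanly separated. The minimum applied to 96 of the 874 members (11.0%) and the summit reads to 413 (47.3%). The 1 kb window applied to 190 (21.7%) and the 10 kb window to 175. Of all listed peaks 29.5% were at the minimum, 46.2% used summit reads, 12.9% the 1 kb window and 11.5% the 10 kb window. In the long stretch only 42 of 772 peaks (5.44%) were at the minimum, and 364 took their background from the 1 kb or 10 kb windows. In the shorter stretch 40 of 80 peaks were at the minimum, the other 40 used reads at the summit, and none used a wider window.

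Where the 10 kb window was the match, it held a median of 313 input reads (271 to 416), all in the long stretch, against 270 reads at the genome-wide minimum. This median is over peaks whose window exceeded the minimum, so it is not the mean input of the stretch. In the centromere bands of other chromosomes the same class had a median of 474 reads and a range up to 3375. Median background was 1.52 in the long stretch (order-statistic 95% interval 1.44 to 1.69) and 1.09 in the shorter one (1.05 to 1.13). Median fold was 4.01 (3.90 to 4.17) in the long stretch and 4.39 (4.23 to 4.70) in the shorter one. Neither pair of intervals overlaps, but they treat neighbouring peaks as independent, and the differences were not tested. Strong peaks numbered 144 of 772 in the long stretch (exact binomial interval 16.0% to 21.6%) and 20 of 80 in the shorter one (16.0% to 35.9%), and these intervals overlap.

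The chromosome 7 centromere was then set beside the centromeres of chromosomes 4 and 20, the non-acrocentric ones nearest in number of peaks, and beside all other centromere bands together. It ranked 5 of 23 chromosomes by number of centromeric peaks. Its density of 218.5 per Mb (204 to 233) compared with 236 (220 to 252) on chromosome 4, 243 (229 to 258) on chromosome 20 and 161 (159 to 164) in all other centromere bands. Median fold was 4.09 (order-statistic 95% interval 3.95 to 4.23) on chromosome 7, 4.11 (3.90 to 4.23) on chromosome 4, 3.97 (3.90 to 4.07) on chromosome 20 and 4.17 (4.11 to 4.21) in the others. These intervals overlap that of chromosome 7 in each case.

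Strong peaks were 19.7% (17.1% to 22.5%) of the members, 26.2% (23.2% to 29.3%) on chromosome 4, 13.6% (11.7% to 15.8%) on chromosome 20 and 30.5% (29.7% to 31.2%) in the others. These intervals do not overlap that of chromosome 7, but they treat neighbouring peaks as independent, and the difference was not tested. Median pileups were 10 reads on chromosome 7, 8 on chromosome 4, 11 on chromosome 20 and 12 in the others, and the part of depth in these shares was not tested. The share of peaks at the minimum background was 11.0% on chromosome 7, 49.9% on chromosome 4, 12.0% on chromosome 20 and 20.9% in the others. The highest member fold of 17.7 compared with 41.0 on chromosome 4 and 9.32 on chromosome 20.

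**Figure D3:**
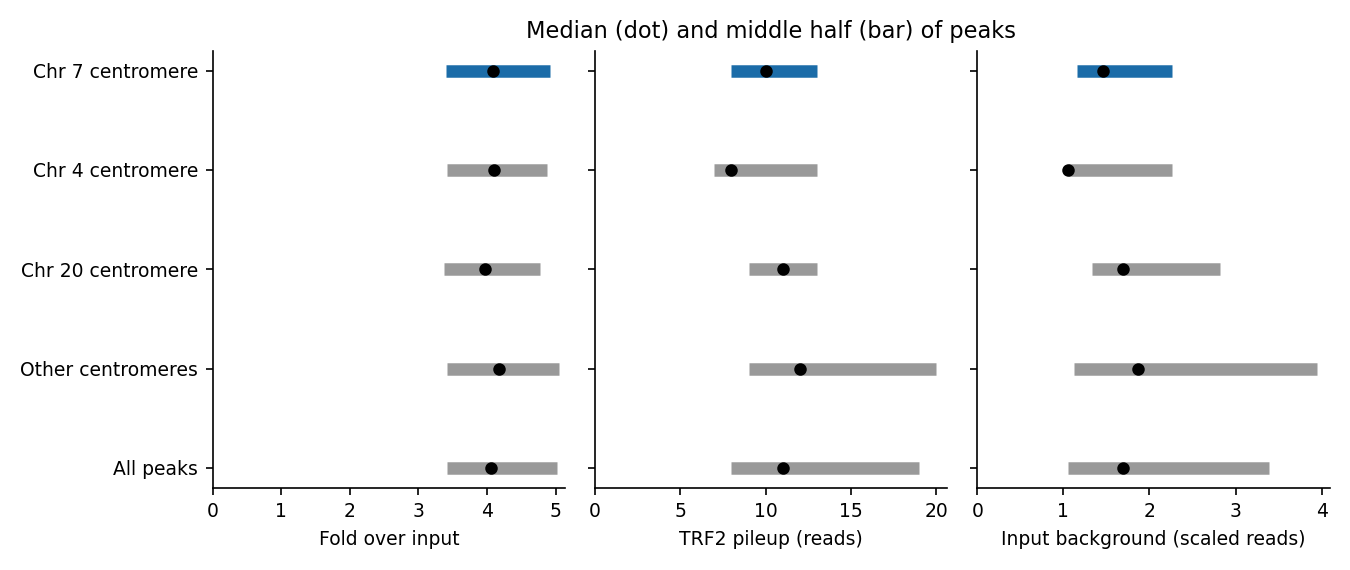
Median (dot) and middle 50% (bar) of the authors' fold, of TRF2 pileup in reads and of input background in scaled reads, for the chromosome 7 centromere and 4 comparison sets, on linear axes from 0. Median folds run from 3.97 to 4.17, while the members' upper quartile of pileup is 13 reads against 20 in the other centromeres.

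Neighbouring summits were irregularly spaced. The closest pair was 146 bp apart, and the distance to the next summit had a median of 2189 bp, with quartiles of 1021 and 4612 bp. In the long stretch the median was 2421 bp and in the shorter stretch 914 bp. Of neighbouring pairs 24.7% were closer than 1000 bp, compared with 41.1% on chromosome 4 and 35.6% on chromosome 20.

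A tandem array could place peaks at a constant interval, so all pairs of summits up to 10 kb apart were scored by the mean cosine of their distance at trial periods of 100 to 5000 bp. A value of 1 means that every distance is a multiple of the period. Over the 2838 pairs of the chromosome 7 centromere the highest value was 0.044, at 178 bp. At the length of the alpha satellite monomer the value was −0.0047. Within the bands the highest values were at 101 bp (0.070) in p11.1 and 103 bp (0.059) in q11.1. Both lie at the lower end of the trial range, and whether they mark a period was not tested. The shorter stretch, with 580 pairs, had its highest value, 0.114, at 242 bp. The long stretch reached 0.040 over 2213 pairs, at 4485 bp, where evenly spread distances alone would give 0.071.

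The same score did find a period elsewhere. The chromosome 1 centromere, added to this comparison after its value was seen, had its highest mean cosine of 0.191 at 1022 bp over 14511 pairs. At 1022 bp the value was −0.022 on chromosome 7, −0.033 on chromosome 4 and −0.025 on chromosome 20. Median pileup was 10 reads in the members and 27 on chromosome 1, and its part in this difference was not tested. No period stood out over the chromosome 7 centromere as a whole, where the score stayed at or under 0.044, and whether the value of the shorter stretch marks a period was not tested.

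**Figure D4:**
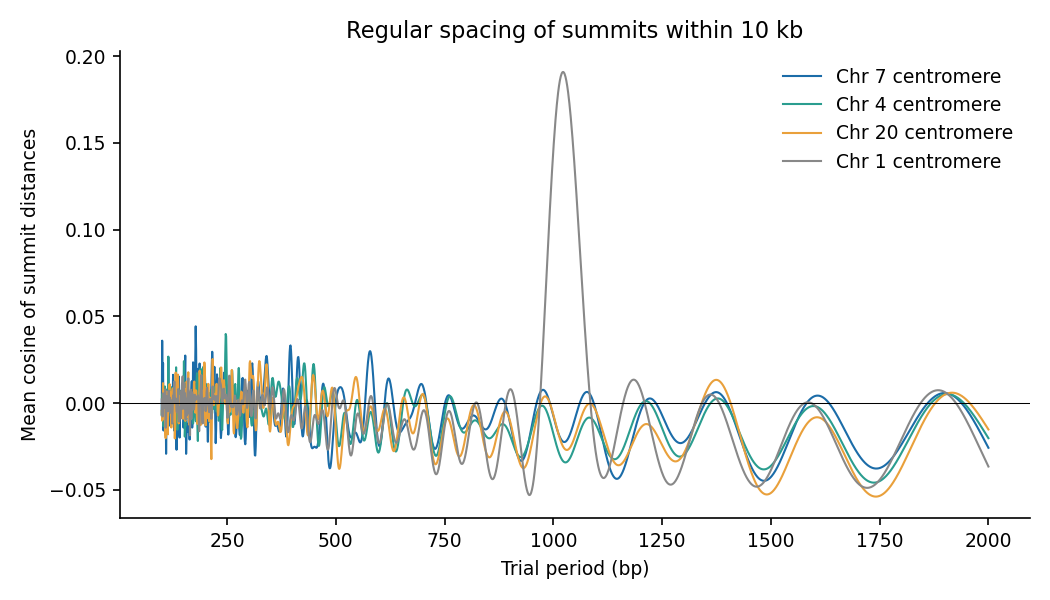
Mean cosine of summit distances up to 10 kb against trial period, shown up to 2000 bp, for 4 centromeres. The chromosome 7 line stays at or under 0.044, while the chromosome 1 line reaches 0.191 at 1022 bp.

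Genes were nearly absent. The RefSeq gene table of GRCh38.p14 places 1 gene in the window, the pseudogene LOC101060796 from 60991902 to 60993220, in the shorter stretch. It carried no summit. The nearest, 2.79 kb away in a peak at 60995951 to 60996024, had a fold of 4.39 from 8 reads. The closest genes outside were the lncRNA gene LOC102723842, ending 232 kb before the window, and the pseudogene RNU6-417P, starting 911 kb after it. The window held 0 entries of the promoter and miRNA sequence tables, so no such sequence was matched to a peak.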

How the data were processed

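One peak list was analysed, that of the TRF2 library called over the input. Per the submitters' processing notes peaks came from MACS2 2.1.0 after Bowtie2 2.3.2, on GRCh38 or hg38, with ChIPseeker 1.36.0 and HOMER also named; the sources used here give no settings and do not say how duplicate or multiply aligned reads were treated. The deposited fold is a ratio of TRF2 pileup to input background. The deposited −log10 p-values and −log10 q-values are the peak caller's. The deposited score equals the whole part of 10 times −log10 p. All 3 served to describe and filter peaks within the list.

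Pileup and background were recovered from MACS2's formulas, in which 1 is added to both before their ratio is formed, and p comes from a Poisson distribution. A whole pileup matched in 100% of peaks (tolerance 0.001 on −log10 p). Each background was then matched to whole input reads in 69 bp, 1 kb or 10 kb (tolerances 0.0005, 0.005 and 0.03 reads), or to the minimum of 1.05; a value matching several was given to the narrowest. Library totals are not given, so depth is stated as reads at the summit. Reads carry no molecular identifiers, so intervals cover counting error only. Bands came from circlize 0.4.16 (R 4.3.3) and genes from RefSeq GRCh38.p14. Scripts ran in Python 3.11.15 with pandas 2.3.3, scipy 1.17.1, matplotlib 3.10.9 and numpy 2.4.6. The recovery and the spacing score were also run on simulated data. The outcome is not given here and is not used as support for any result.

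Named peaks were the 10 of highest fold, the 5 of highest pileup, the 3 widest, the 3 of lowest fold, the strongest in each of the 5 densest bins of 100 kb and the 2 nearest to each window end on either side. Members, rules and lists were chosen with earlier results of these data known. Coordinates are 1-based.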

Additional observations from a re-analysis of the deposited data

How the results depend on the processing

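Of 35 alternatives over 11 results, 18 left the value in place and 17 moved it. In place meant within its interval, within 1.5 times its count or, for the period, nearly equal to it. Any overlap in place of the summit gave the same 874 peaks, and merging peaks closer than an alpha satellite monomer or 1000 bp gave 845 and 632 regions. Requiring a −log10 q of 5 or more left 172 peaks, 2.36% of all such peaks, with 68.6% in p11.1, a median fold of 6.46, a median pileup of 18 and a median background of 1.69. A fold of 5 or more left 210 peaks. A q-value under 0.05 gave medians of 4.45 for fold, 11 for pileup and 1.362 for background, and leaving out peaks at the minimum background gave a median background of 1.69. Filters on q or fold select on these same values. Without peaks of the smallest width 23.0% were strong. The densest bin held 530 peaks per Mb at 100 kb, 560 at 50 kb and 390 at 200 kb. The best period moved to 4046 bp with distances up to 5 kb, 337 bp up to 20 kb, 166 bp with interval middles and 149 bp with strong peaks, where only 107 pairs remained. Splitting at runs of 40 kb or 100 kb, chosen after seeing the data, gave 772 and 861 peaks in the fullest stretch. The shorter stretch kept its bounds under neither. It holds a run of 45889 bp without a summit, so it broke at 40 kb, and at 100 kb it joined the long stretch. Values given for the shorter stretch therefore depend on the 50 kb rule. No paired analysis was possible because there was 1 library per group, and leaving out a replicate was not possible for the same reason. Depth limits single peaks, at a median of 10 reads, and the unknown placement of multiply aligned and duplicate reads bears on every value.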

Other observations

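Neighbouring members of the chromosome 7 centromere shared little of their height. Across 873 neighbouring pairs the Spearman rho was 0.038 for fold, 0.11 for pileup and 0.19 for background, given as a description of these libraries. Of the 96 members at the minimum background, 26 had exactly 7 TRF2 reads and therefore the same listed fold of 3.90.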
